A study of Mus musculus with 3 samples.

Results

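The major histocompatibility region of the mouse, on chromosome 17, is described here through 190 entries of a table of gene levels that holds 24458 rows. The members are all rows of chromosome 17 whose locus (mm9 build) starts within a fixed window, without odorant receptor (Olfr) and microRNA (Mir) symbols. The window held 201 rows, of which 11 were microRNA rows and 0 were odorant receptor rows. The lowest start among the members is 33822636 and the highest end is 37211250. Of the 190 rows, 42 have symbols that begin with H2-. Of these, 30 name class I genes, 10 name class II genes, and H2-Ke2 and H2-Ke6 name a prefoldin subunit and a hydroxysteroid dehydrogenase.

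The series looks at RNA and open chromatin after neuronal activity in the mouse dentate gyrus, a part of the hippocampus whose main cells are granule neurons. Its 3 libraries form 1 group, E24, and are numbered replicate 1, 2 and 3. Each came from the microdissected dentate gyrus of its own C57BL/6 mouse, an adult aged 8 weeks, and the sample labels name no genotype or agent. The deposited table is titled with the abbreviations WT and ECT, which are not explained there. E24 is not explained further, and no second group was analysed. The data thus describe levels and their spread between 3 libraries, 1 per animal. The dissected tissue holds several cell types, so fewer cells of a type and less RNA per cell cannot be told apart.

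Class I molecules are found on most nucleated cells and show peptides from inside the cell to cytotoxic T cells. The peptides are cut by the proteasome, carried into the endoplasmic reticulum by the Tap transporter and loaded with the help of tapasin. Class II molecules belong to professional antigen-presenting cells and show peptides from engulfed material to helper T cells; in the brain they are known from activated microglia and from macrophages at its borders. Neurons carry little class I protein at rest, and some class I molecules have been studied in synapse remodelling. Between the class I and class II genes lies the class III interval, a gene-dense run with complement, cytokine, heat shock and many housekeeping genes.

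Values are RPKM, a read density scaled to gene length and library size. Over the 190 rows they summed to 2819, 2539 and 2519 RPKM in replicates 1, 2 and 3, which was 0.733%, 0.688% and 0.718% of each library's total. Read depth is unknown, so no counting interval is given. Of 8 granule neuron marker rows, 4 reached 1 RPKM in each library. Within 5 rows of each of the 8, a value of at least 25.8 RPKM stood in every library. The same held for each astrocyte marker row, at 30.9 RPKM or more, so such nearby values do not tell cell types apart. Of microglial marker rows 8 of 10 reached 1 RPKM in each library, and of endothelial ones 3 of 6. Of oligodendrocyte ones 2 of 7 did and of astrocyte ones 2 of 6, against 35.2% of all rows. The Csf1r row of microglia and the Flt1 row of endothelial cells were listed at 0, with values of up to 18.6, 47.7 and 45.0 RPKM, and 115, 115 and 110.1 RPKM, within 5 rows. With displaced values such a 0 does not show that a marker was absent.

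Values in this table are displaced by some rows between libraries, and within the stretch this was frequent. For members at 20 RPKM or more, the same row in the other library held a value within 0.1 natural-log units in 7.02% of 57 cases for replicates 1 and 2. The share was 6.78% of 59 cases for replicates 1 and 3, and 22.4% of 58 for replicates 2 and 3. In the whole table the shares were 16.3%, 15.4% and 43.3%. At each distance of 1 to 10 rows, in either direction, the background seen at 26 to 100 rows was subtracted. Summed over these distances, the excess in the stretch was 40.8%, 40.9% and 50.7%. A value can match at more than 1 distance, so these sums are not shares of values. Of the summed excess up to 10 rows, 12.8%, 12.4% and 29.7% stood at the same row, or in register, in the stretch. In the whole table it was 32.9%, 33.6% and 47.1%. Each value below therefore belongs to a row and its printed symbol, not to a gene. A match between libraries does not check that the symbol is right, and the main comparisons use blocks of 10 or more consecutive rows. Comparisons of single rows, of rows picked by symbol and of segments cut by locus are also given. These are not guarded against the displacement in that way.

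**Figure D1:**
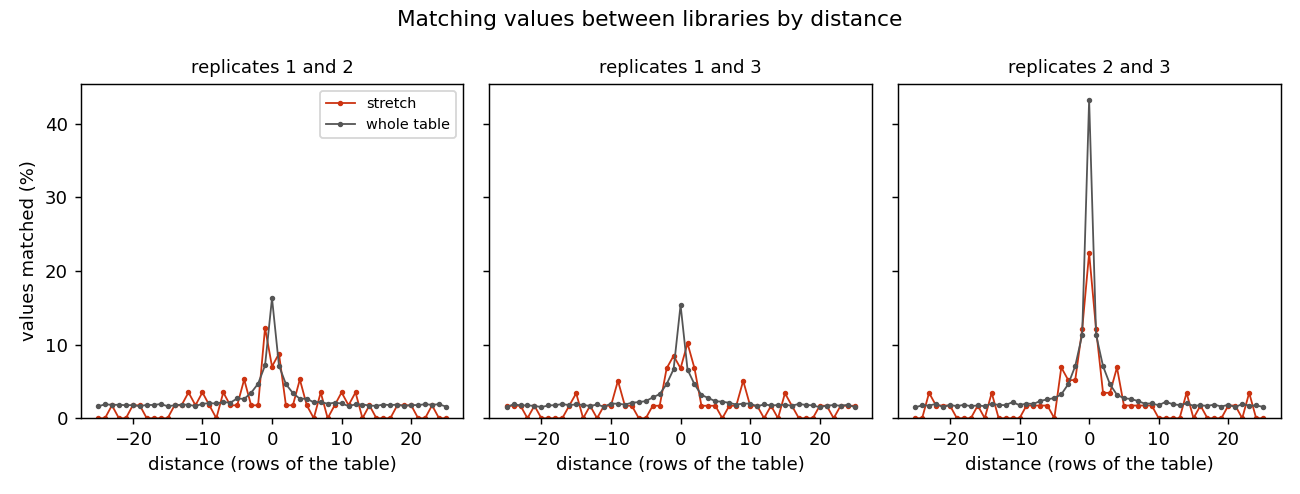
Share of values of 20 RPKM or more (y axis, %) that have a match within 0.1 natural-log units in the other library, by distance in rows of the table (x axis), for the stretch (red) and the whole table (grey), 1 panel per pair of libraries. In the stretch the share at distance 0 is 7.02%, 6.78% and 22.4%, below the 16.3%, 15.4% and 43.3% of the whole table.

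Averaging rows brought the libraries together. Across the 190 single rows, the log2(RPKM + 1) values correlated with a Pearson r of 0.26 (replicates 1 and 2), 0.41 (1 and 3) and 0.47 (2 and 3). Over 19 runs of 10 rows the 3 coefficients were 0.91, 0.89 and 0.99. The rows share their libraries and lie next to each other, so these values only describe the agreement.

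The stretch as a whole lay slightly below the average of the table. Its rows averaged 1.88, 1.73 and 1.77 in log2(RPKM + 1) in replicates 1, 2 and 3, and all rows without Olfr and Mir symbols averaged 2.02, 2.01 and 2.0. The stretch was lower in 3 of 3 libraries, by -0.22 with an SE of 0.026 (limma, adjusted p = 0.000126). Of 118 runs of this length across the genome, 44.1% passed as below the average and 46.6% as above it, and 23 lay lower than this one. A level of 1 RPKM was reached by 46.7% ± 1.52 of the stretch (SD, n = 3), against 53.2% ± 0.335 of all rows and 52.5% ± 0.255 of the remaining rows of chromosome 17. By single rows, 48 of 190 reached that level in all 3 libraries, 80 in 1 or 2 of them and 62 in none. These are 25.3%, 42.1% and 32.6% of the stretch, against 35.2%, 35.8% and 29.0% of all rows.

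**Figure D2:**
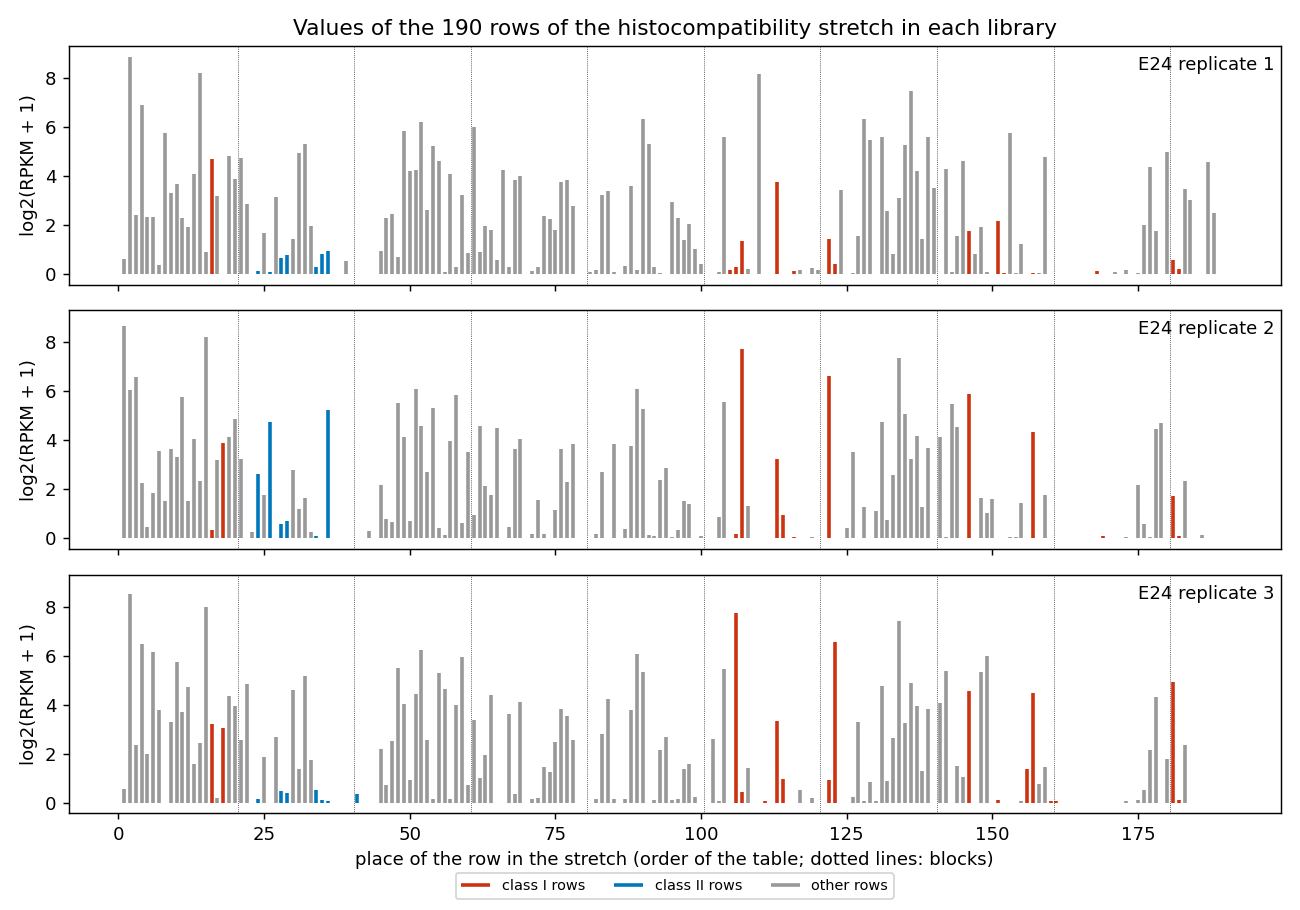
Level of each of the 190 rows, as log2(RPKM + 1) on the y axis, against its place in the stretch in the order of the table, 1 panel per library, with class I rows red, class II rows blue and other rows grey; dotted lines part the blocks. High and empty runs fall at like places in the 3 panels, while single bars shift by a few rows.

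Within this average the level changed several-fold along the stretch. In 10 blocks (9 of 20 rows in table order and a last one of 10 rows), the mean of log2(RPKM + 1) ran from 3.67 ± 0.15 in block 1 to 0.57 ± 0.12 in block 9 (SD, n = 3). The spread across these blocks, an SD of 0.92, was larger than the median SD of 0.14 between libraries within a block. Across the 1103 blocks of the genome the SD was 0.77. The median SD between libraries, with the mean of all rows subtracted, was 0.11 there. Such a contrast is thus not particular to the stretch. Against the mean of all rows, 2 blocks passed as higher and 6 as lower (limma, threshold of 0.05 on the adjusted p), where 42.2% and 36.4% of the 1103 blocks of the genome passed in these directions. Calls are thus frequent everywhere in the genome and do not set a block apart. Between neighbouring blocks, 2 steps up and 5 steps down of 9 passed, against 31.9% and 32.1% of the 1081 steps of the genome, 64% in either direction.

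**Figure D3:**
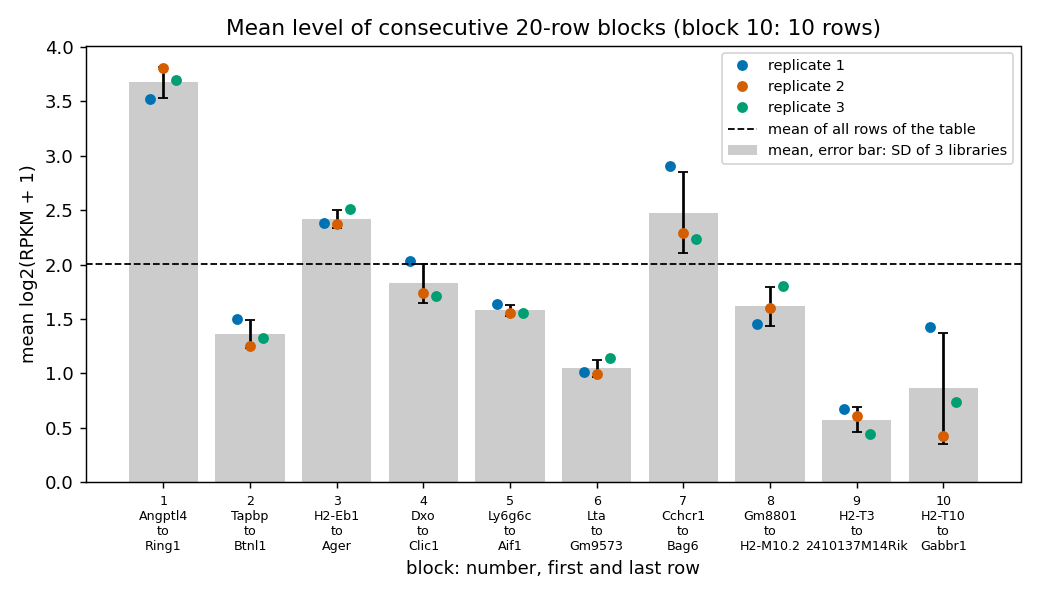
Mean log2(RPKM + 1) of consecutive blocks of rows (y axis, bars; error bars are the SD of 3 libraries, points the libraries), with the first and last row of each block on the x axis; the dashed line is the mean of all rows. Block 1 has the highest mean, 3.67, and block 9 the lowest, 0.57.

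Block 1, the entry to the region and the K end, was the highest. It runs from the Angptl4 row to the Ring1 row and covers loci from 33879428 to 34165000. Its mean was 3.52, 3.81 and 3.70 in replicates 1, 2 and 3, above the mean of all rows by 1.66 with an SE of 0.074 (limma, adjusted p = 0.000363, higher in 3 of 3 libraries). Of the 1103 blocks of the genome, 99.1% were lower.

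Few values made up most of the summed RPKM of block 1, but its mean did not rest on them alone. A level of 1 RPKM was reached by 85% ± 5 of its rows (SD, n = 3). The median value in the block was 8.42, 11.1 and 10.3 RPKM in replicates 1, 2 and 3. Ranked within the block, the highest values were 463, 405 and 362 RPKM in replicates 1, 2 and 3, on the rows named Rps28, Angptl4 and Rps28. The next were 293, 292 and 254 RPKM, on the rows named Rab11b, Rps18 and Rps18. The third-ranked were 116.6, 94.1 and 87.5 RPKM, on the rows Ndufa7, Kank3 and Ndufa7. The ranked values lay near each other in the 3 libraries although the rows that held them differed.

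Rps28 and Rps18 encode proteins of the small ribosomal subunit, Ndufa7 a subunit of respiratory complex I, and Rab11b a GTPase of recycling endosomes. Angptl4 encodes a secreted regulator of lipoprotein lipase, and its row held 0.505 and 0.450 RPKM in replicates 1 and 3. The Rps28 row held 463, 65.8 and 362 RPKM, so it was high in all 3 libraries. The Ring1 row, named for a Polycomb ubiquitin ligase, held 13.8, 28.2 and 14.4 RPKM. The Daxx row, for a histone chaperone, held 7.91, 8.25 and 0.147 RPKM.

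Other rows of block 1 were also high in some libraries and low in others. The Rab11b row held 293, 4.08 and 4.42 RPKM and the Rps18 row 0.833, 292 and 254 RPKM. These rows are neighbours, and 293 RPKM in replicate 1 and 292 RPKM in replicate 2 stood 1 row apart. The Kifc1 row, for a kinesin of the spindle, held 0.293, 10.9 and 12.6 RPKM. The Rgl2 row, for an exchange factor of Ral GTPases, held 11.8, 8.86 and 52.4 RPKM, and B3galt4, for a ganglioside-building galactosyltransferase, 2.79, 1.85 and 25.1 RPKM. The Wdr46 row, for a nucleolar protein, held 15.7, 15.5 and 2.01 RPKM. Of the H2-Ke rows, H2-Ke6 held 27.1, 16.5 and 19.3 RPKM and passed as above 1 RPKM (limma, adjusted p = 0.00342), and H2-Ke2 held 3.86, 53.5 and 11.9 RPKM. The Zbtb22 row, for a zinc finger protein, was among the steady ones with 8.93, 11.3 and 8.65 RPKM.

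Block 2, which holds most class II rows, lay far lower. From the Tapbp row to the Btnl1 row its mean was 1.504, 1.25 and 1.32, below that of all rows by -0.65 with an SE of 0.062 (limma, adjusted p = 0.00183, lower in 3 of 3 libraries). The step down from block 1 was -2.31 with an SE of 0.13 (limma, adjusted p = 0.00118), and 99.1% of the 1081 steps of the genome were smaller. The median value in the block was 0.730, 0.344 and 0.350 RPKM. Its highest rows outside class II and antigen processing were Slc39a7, with 38.5, 2.13 and 34.8 RPKM, and Vps52, named for a subunit of a vesicle-tethering complex at the Golgi, with 6.15, 0 and 27.5 RPKM.

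Class II rows reached 1 RPKM in replicate 2 alone. Of the 10 rows, 7 were under 1 RPKM in every library, against 29.0% of all rows. By limma 0 of the 10 were above 1 RPKM (0 also at an unadjusted p under 0.05), against 18.3% of the table's rows. The rows for the chains of the classical molecules stood low. The H2-Aa row held 0.759, 0 and 0.0745 RPKM and the H2-Ab1 row 0.201, 0.0657 and 0.422 RPKM. The H2-Eb1 row held 0, 0 and 0.280 RPKM, and the H2-Eb2 and H2-Ea-ps rows were listed at 0 in all libraries. Those for the peptide-exchange molecule, H2-DMa and H2-DMb1, held 0.400 to 0.541 and 0.300 to 0.701 RPKM.

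The exceptions were values of replicate 2 on 3 rows. The H2-Ob row, named for a chain that restrains peptide exchange, held 0.888, 36.6 and 0.0499 RPKM. A value of 38.5 RPKM in replicate 1 and of 34.8 RPKM in replicate 3 stood 4 rows away, on the row named for the zinc transporter Slc39a7. The H2-DMb2 row held 0.0529, 25.4 and 0 RPKM, and 25.4 RPKM stood 5 rows away in replicate 1, on the Tapbp row. The H2-Oa row held 0.0928, 5.19 and 0.112 RPKM. On each of these rows the high library had no match at the same row in the other libraries.

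Promoter sequences are shown for 2 class II and 2 class I genes, because the class II rows were low as a group while the H2-D1 row, below, was steady. They are the 250 bases before each gene's start, from RefSeq (GRCm38.p6 build), 5′ to 3′. Capitals mark the Y box CTGATTGG, a site of the class II promoter module, and the kappa B element (GGGGA and TCCCC parted by any base N) known from class I promoters. H2-Aa lies at chr17:34287824-34288073 (minus strand), H2-Eb1 at chr17:34305617-34305866 (plus), H2-K1 at chr17:34000348-34000597 (minus) and H2-D1 at chr17:35262844-35263093 (plus), all in that build.
H2-Aa: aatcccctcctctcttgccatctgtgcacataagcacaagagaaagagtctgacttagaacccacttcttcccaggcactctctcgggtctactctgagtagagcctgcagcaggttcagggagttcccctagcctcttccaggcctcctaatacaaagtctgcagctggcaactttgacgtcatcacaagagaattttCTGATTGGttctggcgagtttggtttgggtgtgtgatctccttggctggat
H2-Eb1: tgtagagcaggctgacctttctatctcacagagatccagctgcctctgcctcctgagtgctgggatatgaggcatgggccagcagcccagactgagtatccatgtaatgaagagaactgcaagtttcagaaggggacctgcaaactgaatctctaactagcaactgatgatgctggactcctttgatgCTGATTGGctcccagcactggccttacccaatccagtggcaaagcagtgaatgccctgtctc
H2-K1: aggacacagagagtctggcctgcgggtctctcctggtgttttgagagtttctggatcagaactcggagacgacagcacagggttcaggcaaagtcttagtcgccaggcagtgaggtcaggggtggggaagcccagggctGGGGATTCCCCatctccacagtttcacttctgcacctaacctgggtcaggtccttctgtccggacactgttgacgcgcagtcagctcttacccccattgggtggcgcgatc
H2-D1: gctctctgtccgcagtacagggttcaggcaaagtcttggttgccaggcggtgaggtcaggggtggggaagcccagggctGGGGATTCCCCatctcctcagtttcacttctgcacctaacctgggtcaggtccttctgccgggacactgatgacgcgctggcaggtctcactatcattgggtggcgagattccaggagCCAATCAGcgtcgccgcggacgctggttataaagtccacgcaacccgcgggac

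Both motifs were searched on both strands, and they do not overlap each other in these 4 promoters. The Y box began 51 bases before the gene start in H2-Aa and 62 bases before it in H2-Eb1, and in H2-D1 it stood on the opposite strand. Among the 190 rows, 147 matched a promoter by symbol. The Y box letters were found for 4 of 8 class II genes (H2-Oa, H2-Aa, H2-Eb2 and H2-Eb1), 12 of 20 class I genes and 9.24% of 119 other genes of the stretch, against 4.43% of all 27025 genes. The kappa B letters were found for 14 of those 27025 genes, and 3 of the 14 were the class I genes H2-K1, H2-Q6 and H2-D1. The Y box letters were thus found in both classes and do not part them. These are matches of letters and do not show that a factor binds, and a link between the motifs and the levels was not tested.

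The antigen processing rows stood among the class II rows and varied between libraries. All 5 listed members were present, and 3 of them reached 1 RPKM in each library, as did 35.2% of all rows. By limma 0 were above 1 RPKM, against 18.3% of the table's rows, and 2 were at an unadjusted p under 0.05, as were 6515 of 22044 rows overall. The median of their mean values was 10.2 RPKM, against 4.24 RPKM over all rows. The Tapbp row, for tapasin, held 25.4, 8.29 and 4.87 RPKM. The rows for the immunoproteasome subunits Psmb8 and Psmb9 held 29.6, 1.26 and 1.57 RPKM, and 1.68, 5.78 and 23.2 RPKM. Those for the transporter, Tap1 and Tap2, held 4.41, 0.592 and 4.67 RPKM, and 2.87, 0.173 and 2.29 RPKM.

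At the distal end of the class II rows the level fell to nearly nothing for 8 rows and then rose. In the genome 91 runs of 8 or more rows, all under 1 RPKM in every library, held 6.27% of rows. Another run of 8 such rows in the stretch goes from H2-L to Cchcr1. The run of 8 rows from H2-Eb2 to Btnl6 had a highest value of 0.430 RPKM in any library. In it 5 rows were listed at 0 in all, as were 14.2% of all rows. It holds all 5 butyrophilin-like (Btnl) rows, named for relatives of butyrophilin that act on T cells. Block 3, from the H2-Eb1 row to the Ager row, began within this run and ended in the class III interval. Its mean was 2.38, 2.37 and 2.52, above that of all rows by 0.41 with an SE of 0.051 (limma, adjusted p = 0.00365, higher in 3 of 3 libraries). The step up from block 2 was 1.06 with an SE of 0.094 (limma, adjusted p = 0.00222).

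Ranked values of block 3 were close in the 3 libraries, although not each had a match within 10 rows. The highest were 71.6, 66.8 and 74.6 RPKM, on the rows named Ppt2, Prrt1 and Ppt2. The second were 55.3, 56.8 and 61.0 RPKM, on the rows Rnf5, Egfl8 and Stk19. Ppt2 encodes a lysosomal thioesterase, Prrt1 a transmembrane protein that associates with AMPA receptors, and Rnf5 a ubiquitin ligase of the endoplasmic reticulum. The row for the transcription factor Atf6b held 35.6, 38.4 and 0.0960 RPKM, and a value of 38.5 RPKM stood on the next row, Cyp21a1, in replicate 3. The Prrt1 row held 17.6, 66.8 and 20.7 RPKM and was above 1 RPKM (limma, adjusted p = 0.0187). Other rows were high in 1 or 2 libraries. The Stk19 row, for a nuclear protein, held 8.23, 0.520 and 61.0 RPKM. The Agpat1 row, for an acyltransferase of phospholipid synthesis, held 15.7, 14.7 and 0.106 RPKM. The row of the homeobox gene Pbx2 held 17.4, 0.608 and 0.891 RPKM, and that of the retinoid X receptor gene Rxrb 0.0438, 0.0962 and 23.7 RPKM. The Ager row, for the receptor of advanced glycation end products, held 0.819, 10.4 and 0.658 RPKM. The Notch4 row, named for a receptor of endothelial cells, held 0.853, 23.1 and 1.0 RPKM.

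The middle of the class III interval was lower. Block 4, from Dxo to Clic1, had means of 2.03, 1.74 and 1.71. It deviated from all rows by -0.18 with an SE of 0.079, which did not pass (limma, adjusted p = 0.10), and without replicate 1 it was -0.28 with a limma adjusted p of 0.0145. The step down from block 3, -0.60 with an SE of 0.11, passed (limma, adjusted p = 0.0143). With replicate 2 or 3 left out it was -0.58 and -0.49, and it failed the test (limma, adjusted p = 0.0662 and 0.0675). The highest value of block 4 in replicate 1 stood on the row for the RNA decapping enzyme Dxo, which held 62.9, 0.897 and 9.43 RPKM. The Nelfe row, for a subunit of the complex that pauses RNA polymerase II, held 2.43, 2.39 and 20.1 RPKM. The row of the RNA helicase gene Skiv2l held 17.8, 0 and 0 RPKM, that of the zinc finger gene Zbtb12 0.224, 0.370 and 11.1 RPKM, and that of the lysosomal sialidase gene Neu1 13.2, 3.83 and 10.5 RPKM. Of these 5 rows only Neu1 passed as above 1 RPKM (limma, adjusted p = 0.0436).

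Block 5, from Ly6g6c to Aif1, had means of 1.64, 1.55 and 1.55, below all rows by -0.43 with an SE of 0.039 (limma, adjusted p = 0.00160, lower in 3 of 3 libraries). Its highest values were 78.7, 66.3 and 66.4 RPKM, on the rows Abhd16a, Ly6g5b and Ly6g5b. The Ly6g5b row, for a protein of the Ly6 family, held 0.105, 66.3 and 66.4 RPKM, so replicates 2 and 3 matched on it and replicate 1 did not.

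Complement rows lay in this interval. Of the 4 listed, 0 were above 1 RPKM by limma, with 1 at an unadjusted p under 0.05, against 18.3% of the table's rows by limma's adjusted p, so that 0 of 4 lies near the background. The C4b row, named for the fourth complement component, held 2.80, 3.35 and 2.83 RPKM, close in all 3 libraries. The C4a row held 13.4, 11.3 and 0.290 RPKM and the C2 row 0.454, 21.5 and 0 RPKM. C4a and C4b are near-copies of each other, so reads can be split between them. The Cfb row, for factor B of the alternative pathway, held 0.213, 1.92 and 0.146 RPKM.

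Heat shock and cytokine rows were next. The 3 rows for inducible and related Hsp70 chaperones held at most 4.59 RPKM, with Hspa1a at 2.43, 1.23 and 4.59 RPKM and Hspa1b at 4.18, 0.117 and 1.70 RPKM. Of these 3 rows 0 were above 1 RPKM by limma (0 also at an unadjusted p under 0.05), where 18.3% of the table's rows passed. Hspa1a and Hspa1b encode nearly the same protein and their reads can be split as well. Of the 6 rows of the tumour necrosis factor cluster, 0 passed too (0 also at an unadjusted p under 0.05), and with that share a count of 0 in lists this short says little. The Tnf row held 3.05, 1.64 and 2.01 RPKM and the lymphotoxin row Lta was listed at 0. The Aif1 row, named for the microglial protein Iba1, held 0.323, 0.0654 and 0 RPKM, and the highest value within 5 rows of it was 6.64, 5.39 and 5.0 RPKM.

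Few rows held close values in all 3 libraries. Across the stretch, 12 of 190 rows reached 1 RPKM in each library with the highest value at most 1.5 times the lowest, a share of 6.32% against 14.5% of all rows, and 6 of the 12 lay in the class III interval. The Tnxb row, for a tenascin of the extracellular matrix (34807479 to 34856760), held 46.8, 45.6 and 43.4 RPKM. That of Lsm2, of the spliceosome, held 12.5, 11.3 and 13.2 RPKM. The Ddah2 row, for an enzyme that clears methylarginines, held 10.9, 12.5 and 12.7 RPKM. The uncharacterised row 1110038B12Rik held 14.8, 15.4 and 16.4 RPKM. The row of the bromodomain gene Brd2, whose locus lies further back, held 1.58, 1.87 and 1.57 RPKM.

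By limma, 22 of 190 rows (11.6%) lay above 1 RPKM, a smaller share than the 18.3% of the whole table, and this difference was not tested. Without replicate 3 the number was 13. It includes the Abhd16a row, for a phosphatidylserine lipase, at 78.7, 38.1 and 38.7 RPKM, and the Flot1 row, for the membrane scaffold flotillin, at 47.3, 25.95 and 25.7 RPKM. The Atat1 row, for the tubulin acetyltransferase, held 46.7, 11.8 and 13.0 RPKM. Of the H2- rows, H2-D1 and H2-Ke6 passed, 2 of 42.

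Block 6 holds H2-D1 and most rows of the Q class I genes, though not H2-Q7 and H2-Q9, and was low but for 3 values per library. From the Lta row to the Gm9573 row its mean was 1.01, 0.997 and 1.14, below all rows by -0.96 with an SE of 0.050 (limma, adjusted p = 0.000464, lower in 3 of 3 libraries). The highest values were 284, 213 and 209.9 RPKM, on the rows named Pou5f1, H2-Q4 and H2-Q5. The second were those of the Tnxb row, and the third those of the H2-D1 row. The fourth-ranked were 1.52, 1.47 and 5.0 RPKM, so the block held little beyond these 3 values.

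The highest value thus stood on a different row in each library. The Pou5f1 row, named for the pluripotency factor Oct4, held 284, 0 and 0.000755 RPKM. The H2-Q4 row held 1.52, 213 and 0.341 RPKM and the H2-Q5 row 0.214, 0.120 and 209.9 RPKM. The values of replicates 2 and 3 lay within 0.1 natural-log units of each other, 1 row apart. The row named Atp6v1g2, for a subunit of the vesicular proton pump, lies between the H2-Q4 row and the Pou5f1 row in this block and held 0.149, 1.47 and 1.63 RPKM.

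The H2-D1 row was the only H2- row that reached 1 RPKM in each library with values within 1.5 times of each other. H2-D1 encodes a classical class I heavy chain (35400038 to 35404442), and its row held 12.4, 8.49 and 9.17 RPKM. Its level was above 1 RPKM (limma, adjusted p = 0.00600). The row of the other classical heavy chain of this strain, H2-K1 (34132956 to 34137278), held 0, 13.8 and 7.25 RPKM, so that it was listed at 0 in replicate 1. The H2-K2 row, 2 rows before it among the members, held 25, 0.270 and 8.23 RPKM. Which of these values belong to H2-K1 was not resolved.

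**Figure D4:**
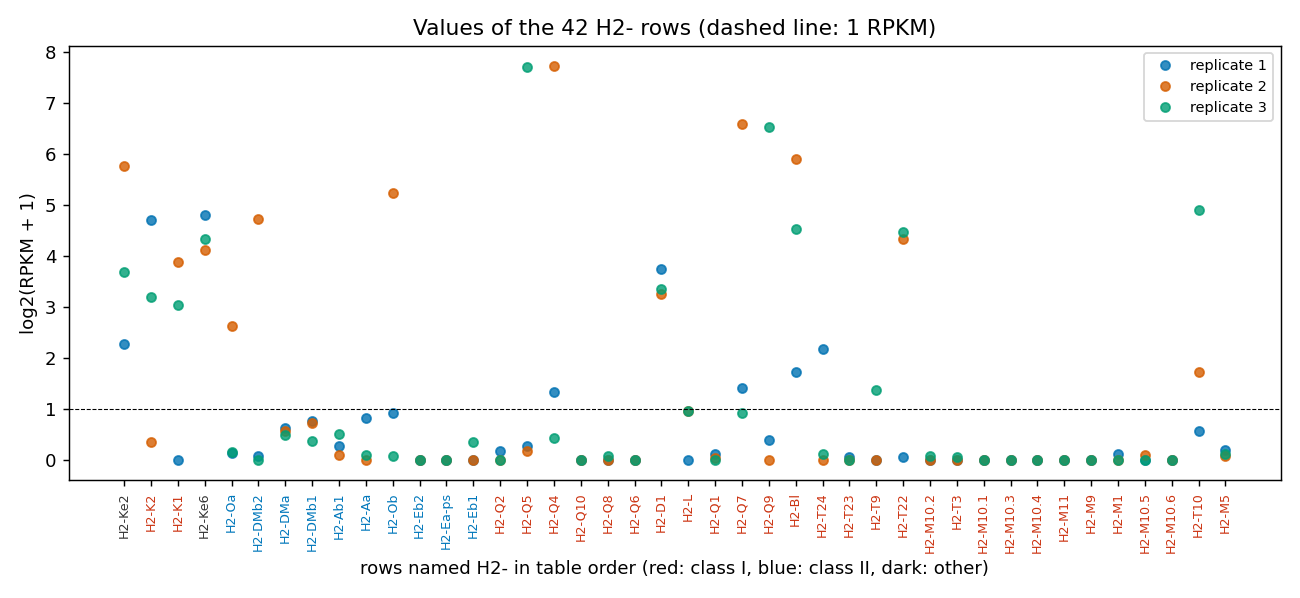
Levels of the 42 H2- rows as log2(RPKM + 1) (y axis) in table order (x axis), with 1 point per library; label colours mark class I (red), class II (blue) and the H2-Ke rows (dark), and the dashed line is 1 RPKM. The H2-D1 points lie together, most other high rows are high in 1 or 2 libraries, and the H2-M rows lie at or near 0.

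Across the 30 class I rows, 18 were under 1 RPKM in every library, against 29.0% of all rows. A further 10 class I rows reached it in 1 or 2 libraries and H2-D1 and H2-Bl in all 3, against 35.8% and 35.2% of all rows. By limma 1 was above 1 RPKM and 2 were at an unadjusted p under 0.05, against 18.3% of rows of the table. The median of their mean values was 0.0381 RPKM, against 3.50 RPKM over the stretch. The H2-Bl row held 2.33, 58.7 and 22.3 RPKM. The H2-Q7 row held 1.66, 96.0 and 0.894 RPKM and the H2-Q9 row 0.307, 0 and 91.9 RPKM, with the high values of replicates 2 and 3 standing 1 row apart. The H2-T22 row held 0.0327, 19.3 and 21.2 RPKM, and the H2-T10 row 0.472, 2.32 and 29.2 RPKM. The H2-T24 row held 3.49, 0 and 0.0799 RPKM and the H2-T9 row 0, 0 and 1.60 RPKM, each above 1 RPKM in 1 library.

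Low values in class I rows have a further limit, since class I genes resemble each other. Of the 30 class I rows 26 matched a transcript by symbol in the GENCODE M21 annotation. A median of 12.6% of their 50-base windows also occurred in transcripts of another gene, from 0% for H2-M11 to 36.5% for H2-Q5. The median was 0% for the class II genes and for the other genes of the stretch. Shared windows are not confined to class I, however. A share of 20% or more was found for 6 of 26 class I genes, 2 of 10 class II genes and 19 of 141 other genes. It was 70.5% for H2-Ke6 and 74.5% for Slc39a7, both with the gene model Gm20427 as the closest. For Cfb it was 73.0%, with Gm20547, which was also the closest for C2. Neighbouring loci here share a single model, so these shares need not be a likeness between separate genes as in class I. Whether the annotation used holds such models is not stated, so what they mean for the levels was not resolved. For H2-D1 the share was 12.8%, and for H2-T22 34.5%, with H2-T10 as the closest gene. With 100-base windows the class I median was 0.571%. The read length is not given in the sources used here.

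**Figure D5:**
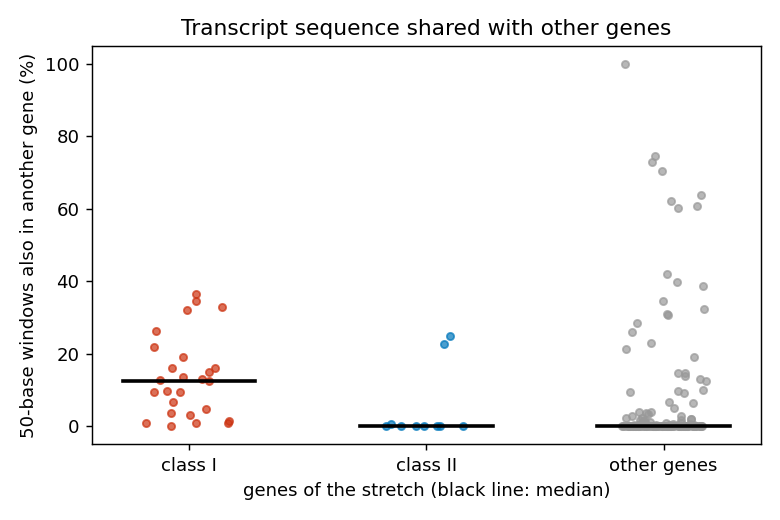
Share of each gene's 50-base transcript windows that also occur in another gene's transcripts (y axis, %), for class I, class II and other genes of the stretch (x axis); each point is a gene and the black line is the median. The class I median is 12.6% and the other medians are 0%.

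Overlapping loci add to this. Of the 42 H2- rows 12 overlap the locus of another member, and of all 190 rows 25 do. The H2-L row, whose locus lies within that of H2-D1, held 6.24e-05, 0.949 and 0.948 RPKM. The row LOC547349, which overlaps the same loci, held 1.17e-83, 3.81e-33 and 3.22e-21 RPKM. The LOC547349 row was thus next to 0 in all 3 libraries, and the H2-L row in replicate 1. The H2-Q7 and H2-Q9 rows overlap each other, as do H2-Q6 with H2-Q8 and H2-T9 with H2-T22, and their levels are uncertain on this account too.

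Beyond the Q genes the framework interval, with genes shared by mammals, was higher again. Block 7, from Cchcr1 to Bag6, had means of 2.90, 2.29 and 2.24. The step up from block 6 was 1.43 with an SE of 0.18 (limma, adjusted p = 0.00497). Its offset from all rows, 0.47 with an SE of 0.16, did not pass (limma, adjusted p = 0.0551), and without replicate 1 it was 0.26 with a limma adjusted p of 0.0195. Replicate 1 was the highest library here, with 70% of rows at 1 RPKM or more against 60% and 50%.

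The highest values were 176, 160.4 and 169 RPKM, on the rows Dhx16, Vars2 and Vars2, named for a splicing helicase and for the mitochondrial valyl-tRNA synthetase. The second were 78.3, 96.0 and 91.9 RPKM, on the rows Cdsn, H2-Q7 and H2-Q9. The Dhx16 row held 176, 8.46 and 28.8 RPKM and the Vars2 row, 2 rows away, 7.54, 160.4 and 169 RPKM. The Bag6 row, for a chaperone of tail-anchored proteins, held 10.4, 0 and 0 RPKM. The Mrps18b row, for a mitochondrial ribosomal protein, held 17.5, 17.1 and 14.4 RPKM. The row named for the tubulin gene Tubb5 held 0.746, 4.99 and 5.27 RPKM.

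Block 8, which holds H2-T rows, was below all rows. From Gm8801 to H2-M10.2 its mean was 1.45, 1.60 and 1.81, an offset of -0.39 with an SE of 0.086 (limma, adjusted p = 0.0182, lower in 3 of 3 libraries). The call was lost when replicate 1 or 2 was left out, at -0.30 and -0.38 (limma, adjusted p = 0.0667 and 0.0808). The step down from block 7, -0.86 with an SE of 0.23 (limma, adjusted p = 0.0347), was lost when replicate 2 or 3 was left out, at -0.94 and -1.07 (limma, adjusted p = 0.0852 and 0.0565). Its highest values were 52.2, 58.7 and 61.7 RPKM, on the rows for the GTPase Gnl1, H2-Bl and C920025E04Rik.

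In block 8 too most high values stood in a single library. The Gnl1 row held 52.2, 0.0460 and 0 RPKM and the C920025E04Rik row 0.0402, 1.02 and 61.7 RPKM. The Ehmt2 row, for the histone methyltransferase G9a, held 18.2, 0.0304 and 40.9 RPKM, and the Ppp1r10 row, for a nuclear subunit of protein phosphatase 1, 0.0411, 43.4 and 0 RPKM. These rows are neighbours, and the values of replicates 3 and 2 lay within 0.1 natural-log units. The Mdc1 row, for a protein of DNA damage foci, held 1.91, 21.9 and 1.81 RPKM, and the row of the translation factor Abcf1 23.5, 0 and 1.05 RPKM. The Rpp21 row, for a subunit of RNase P, held 26.1, 2.40 and 1.77 RPKM.

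The H2-M end was the lowest part of the stretch. Block 9, from H2-T3 to 2410137M14Rik, had means of 0.67, 0.60 and 0.45, below all rows by -1.44 with an SE of 0.058 (limma, adjusted p = 0.000295, lower in 3 of 3 libraries). Only 5.26% of the 1103 blocks were lower, and the median value in the block was 0 in each library. The step down from block 8 was -1.04 with an SE of 0.14 (limma, adjusted p = 0.00530).

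Across its border with block 8, 15 consecutive rows held next to nothing. From H2-M10.2 to 1700031A10Rik the highest value in any library was 0.101 RPKM, on the Trim31 row, and 9 of the 15 rows were listed at 0 in all. The run holds 10 H2- rows, which are H2-T3 and 9 H2-M genes, and 3 rows of tripartite motif (Trim) genes. H2-M10 genes are class I genes known from sensory neurons of the vomeronasal organ. In the genome 36 such runs of 15 or more rows, all under 1 RPKM in every library, held 3.76% of rows. The tenth H2-M row, H2-M5, lies outside the run and held 0.143, 0.0531 and 0.0879 RPKM.

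Past the H2-M run block 9 rose at its edge. The rows for the phosphatase inhibitor Ppp1r11 and for Znrd1, a subunit of RNA polymerase I, held 2.35, 20.7 and 18.6 RPKM, and 19.7, 0.0251 and 3.45 RPKM. The Znrd1as row, antisense to Znrd1, held 0, 25.3 and 0 RPKM; whether reads were counted by strand is not stated, so the pair cannot be told apart. The uncharacterised row 2410137M14Rik held 30.4, 0 and 2.39 RPKM.

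The last block, of 10 rows, had means of 1.42, 0.43 and 0.74 and the widest spread between libraries, an SD of 0.51. It was below all rows by -1.15 with an SE of 0.21 (limma, adjusted p = 0.0116, lower in 3 of 3 libraries). Its rows come from distant places of the stretch, from 35286030 to 37211250. The row of the myelin gene Mog held 9.84, 4.03 and 4.12 RPKM. The rows of the GABA-B receptor gene Gabbr1 and of Prrc2a, a large RNA-binding protein, were listed at 0 in all libraries, although these genes are known to be active in brain.

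The stretch was also cut by locus into 8 segments, whose levels alternated as well, with wider spreads between libraries. Mean log2(RPKM + 1) was 3.63 ± 0.40 in the 10 rows before Daxx and 2.99 ± 0.37 in 18 rows around K (SD, n = 3). It was 0.99 ± 0.23 in 21 class II rows with their neighbours and 1.98 ± 0.14 in 60 class III rows. The 12 D and Q rows had 1.28 ± 0.58, the 29 framework rows 2.02 ± 0.56, the 14 T rows 1.25 ± 0.68 and the 26 M rows 0.74 ± 0.32. Class II was lower than K in 3 of 3 animals, by -2.01 ± 0.47, and class III was higher than class II in 3 of 3, by 0.99 ± 0.35. The exact two-sided sign-flip permutation p was 0.25 for both, the smallest that 3 animals allow. K was lower than the rows before it by -0.64 ± 0.64, and D and Q lower than class III by -0.69 ± 0.71, both in 3 of 3 animals (exact permutation p = 0.25). The order of D and Q and class III turned when rows averaging under 0.1 RPKM were left out, with offsets from all rows of -0.0051 for D and Q and -0.27 for class III. Without replicate 1 the D and Q offset was -0.39, against -0.73 with all 3. Beyond D and Q the differences between neighbouring segments had an SD of 0.98 or more, and their sign was not the same in all animals.

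Rows named H2- averaged 0.66, 1.40 and 1.24 in log2(RPKM + 1), and the 148 other rows of the stretch 2.22, 1.82 and 1.92. The difference was -1.56, -0.42 and -0.68 in replicates 1, 2 and 3, with a mean of -0.89 ± 0.60 (SD, n = 3) and an exact two-sided sign-flip permutation p of 0.25. The H2- rows were lower in all 3 animals, and the size of the difference varied several-fold between them. Without replicate 1 it was -0.55, and with rows averaging under 0.1 RPKM left out it was -0.33. Within class I, the 10 M-segment rows averaged 0.022 ± 0.0069 and the 20 other rows 1.56 ± 0.65, a difference of 1.53 ± 0.65, in the same direction in all 3 animals (exact two-sided sign-flip permutation p = 0.25).

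Among the gene lists that cut across the blocks, RNA processing and translation rows reached 1 RPKM in every library in 8 of 19 cases, against 35.2% of all rows, and 3 of 19 were above 1 RPKM by limma (Rps28, Lsm2 and Mrps18b). Chromatin and transcription rows were so in 4 of 13 cases, with 2 above 1 RPKM by limma, Zbtb22 and Ring1. The mitochondria and vesicle traffic list is mixed and also holds rows for a spindle kinesin (Kifc1), a nucleolar protein (Wdr46) and a nuclear one (Stk19). Its rows reached 1 RPKM in every library in 6 of 10 cases, with Rgl2 the 1 row above 1 RPKM by limma. Its median of row means, 17.2 RPKM, was the highest among the lists and describes these rows, not the theme of the name. Adhesion, matrix and neuronal surface rows reached 1 RPKM in every library in 4 of 12 cases, with 3 above 1 RPKM by limma (Neu1, Tnxb and Flot1). Of all rows tested 18.3% passed that test, and several of these shares lie near those of all rows. Of 5 butyrophilin-like and 6 tripartite motif rows, 0 were above 1 RPKM by limma (0 also at an unadjusted p under 0.05), and the highest of them was Trim26 with 22.6, 0 and 0 RPKM.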

How the data were processed

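RNA of the dentate gyrus of 3 mice was sequenced, 1 library per animal. The deposited values are RPKM per gene; TopHat2, Cufflinks and the mm9 build are named in the submitters' processing notes, with no version; the annotation used is not stated. The table's other 9 value columns belong to no sample analysed here and were left aside. Depth is unknown. The p-values rest on the spread between the 3 libraries, which limma moderates over all runs or rows. That spread mixes differences between animals with the displacement of values, so it is not the spread between animals alone.

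The members, lists and tests were chosen with earlier results of these data known; ranked values, empty runs, the rows within 1.5 times and the sequence comparisons were added after seeing the values. H2-Ke2 and H2-Ke6 were moved from class I to the other genes for what they encode. Rows of chromosomes 1 to 19 and X without Olfr and Mir symbols were cut into runs of 20 in table order, starting anew at the stretch, and a remainder under 10 rows joined the run before. Per-library means of log2(RPKM + 1), minus the mean of all 22044 rows, and steps between neighbouring runs were compared with 0 by limma (3.58.1, R 4.3.3; a model of the mean alone, two-sided, Benjamini-Hochberg, adjusted p under 0.05). Single rows were tested against 1 RPKM, one-sided, with a variance trend, over all 24458 rows. The tests were run on simulated data with independent noise and no displaced values. That check does not cover the displacement seen here. Segments were cut at the starts of Daxx, H2-Oa, Notch4, H2-D1, Pou5f1, H2-T24 and Rpp21. Named rows were all H2- rows reaching 1 RPKM, listed rows reaching 10 RPKM, the 2 highest of each block and rows reaching 100 RPKM, with others added for contrast. Alternatives changed the pseudocount, scaling, filter, run length, row order and libraries. Promoters are of another build than the values, and no coordinates were mixed.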

Additional observations from a re-analysis of the deposited data

How the results depend on the processing

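The main results were recomputed 77 times under other settings, and 59 values held, 18 moved and 0 changed sign. Most of them are counts, shares or a gap, which cannot change sign. Only the offset of the stretch and the H2- difference could do so. Of 60 recomputed segment offsets, 45 held, 9 moved and 6 changed sign. The stretch stayed below all rows in every alternative run, from -0.14 with Olfr and Mir rows kept to -0.40 with a pseudocount of 0.1. With that pseudocount the gap between the highest and lowest segment was 4.80 and the H2- difference -1.63, which was -0.33 with the filter below and ran from -1.12 to -0.55 with a library left out, against -0.89. The gap was 2.17 after a filter on rows averaging under 0.1 RPKM, against 2.89. After 5 rows were trimmed from either edge of the 4 segments long enough for it, the gap among these 4 was 1.70. It was counted as moved but is not comparable with 2.89, since the highest segment, the rows before Daxx, is left out. Among these 4 the framework segment had the highest mean and the M segment the lowest. Their means were 2.02 and 0.74 before trimming and 2.37 and 0.67 after it. In 10-row blocks 4 were above and 11 below, with 4 steps up; in 40-row blocks 2 were below, with 1 step up and 3 down. Ordered by locus start, 1 block was above and 3 steps went down. The share of rows at 5 RPKM or more was 30.5%, and 10 rows lay above 5 RPKM. With a library left out, 3 to 5 steps went down, 13 to 24 rows lay above 1 RPKM, and 12.4% to 29.7% of the summed excess of matches was in register.

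Segment offsets near 0 changed sign. That of the class III segment, -0.033, was 0.035 with a pseudocount of 0.1 and 0.055 without edges, and ran from -0.10 without replicate 1 to 0.020 without replicate 2. That of the framework segment, 0.0081, was -0.14 with a pseudocount of 0.1 and -0.21 with the filter, and ran from -0.29 without replicate 1 to 0.25 without replicate 3. Run length and libraries change what is tested; for the others the cause was not tested. No paired analysis was possible because only 1 group was analysed. What depth limits could not be stated.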
